A study of Mus musculus with 16 samples.

Results

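The data are bulk RNA-seq counts from the bone marrow of Nrf2-/- mice that received the chemotherapy drug 5-fluorouracil (5-FU) with the compound BMX-001, set against marrow of Nrf2-/- mice that received 5-FU alone. Each of these groups held 2 libraries, so the comparison rests on 4 of the 16 libraries of the study. Nrf2-/- mice given only phosphate-buffered saline (PBS), also with 2 libraries, served to say whether a gene lay towards or away from the untreated level. The whole study crossed 2 genotypes, wild-type C57BL/6 and Nrf2-/-, with 4 treatments: PBS, BMX-001, 5-FU and the combination. The wild-type groups served to estimate the spread between duplicates and to test whether the difference made by BMX-001 depended on genotype. They also gave a contrast of 5-FU against PBS from which 5-FU genes were chosen.

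Each 5-FU dose was 20 mg/kg. The second followed the first by 7 days, and the mice were killed for marrow 10 days after the first. BMX-001 dosing, at 0.5 mg/kg, began 24 h ahead of the first 5-FU dose and was repeated at intervals of 3 days. Wild-type mice were males of 8 to 10 weeks. The Nrf2-/- mice were bred from heterozygous males and females, and the labels give neither their age nor their sex. The knockout allele is described as leaving a mutant, inactive form. Marrow was isolated in duplicate. The labels do not say whether duplicates came from different animals, so the p-values measure only the spread between these libraries, which may be technical.

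5-FU blocks thymidylate synthase and enters RNA and DNA, and it lowers the output of dividing marrow cells. BMX-001 is a manganese porphyrin that mimics superoxide dismutase and reacts with peroxide and thiols. NRF2, encoded by Nfe2l2, turns on antioxidant and detoxification genes when its repressor KEAP1 is modified by oxidants, so Nrf2-/- marrow asks what the compound does without that factor.

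Between the combination and 5-FU alone, 1 gene among 18844 tested passed the test. That gene was Ifi208, a member of the interferon-inducible Ifi200 family of nucleic acid sensors and transcriptional regulators on mouse chromosome 1. It was higher with the combination. The call was lost in a fit of all 16 libraries and in a fit of only 6 Nrf2-/- libraries, and another test, DESeq2, called 11 genes. The red cell and monocyte genes that were lower after 5-FU than after PBS were about as low with BMX-001 added. So were the antioxidant genes Cat and Gclm, chosen after their values were seen, but the antioxidant lists were not low after 5-FU as a whole. Of 24 immediate early genes, 16 (66.7%), Fos and Fosb among them, had lower values in both combination libraries than in both 5-FU libraries. Of all genes, 16% were lower in this way, and none of the 24 passed the test in the fit used throughout. The test was edgeR's quasi-likelihood test over 14 libraries with Benjamini-Hochberg adjustment over all genes tested and a threshold of 0.05.

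The 1 call is 0.00531% of the genes tested, and 1064 genes (718 higher, 346 lower) had an unadjusted p under 0.05, which is 5.65%. Against PBS, 5-FU alone gave 558 calls (2.96%), of which 87 were higher (0.462% of all genes) and 471 lower (2.5%). The combination against PBS gave 1041 calls (5.52%), of which 266 were higher (1.41%) and 775 lower (4.11%). These contrasts share libraries with each other, so their counts are set side by side and were not tested against one another. The 4 compared libraries held 32279138 to 35209560 counts. For the 9414 genes with a log2 CPM (counts scaled to library size) that averaged 3 or more, the median standard error of the log2 fold change between combination and 5-FU was 0.10.

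1 of the 4 libraries stood apart. 5-FU library 1 lay at 47.7 on the second principal component (12.8% of variance), outside the range of the other 13 libraries, -20.5 to 19.2. It also held 4644 CPM of Ighm, the immunoglobulin mu constant gene, against 947 CPM in 5-FU library 2. Y-linked genes were present in all libraries at similar levels, with Ddx3y between 39.6 and 50.3 CPM in the 6 Nrf2-/- libraries.

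The targeted gene was examined first. Nfe2l2 stood at 102 to 121 CPM in the wild-type libraries. In Nrf2-/- marrow it stood at 6.66 and 7.18 CPM after PBS, 6.45 and 7.29 CPM after 5-FU, and 9.36 and 9.48 CPM after the combination. These 6 Nrf2-/- libraries were thus all far below wild type, and the combination pair lay above the other 4. Nrf2-/- mice given BMX-001 without 5-FU, a group left out of the fit, held 16.7 and 8.55 CPM of Nfe2l2. The first value came from BMX-001 library 1, which stood far apart and was the reason the group was left out. The log2 fold change of the combination over 5-FU was 0.45 ± 0.10 (SE), with an adjusted p of 0.852 by edgeR, and over PBS it was 0.44 with an adjusted p of 0.0188. The call against PBS was lost without any 1 of the 4 libraries in it. The counts do not separate the mutant transcript from other reads over the gene.

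**Figure D1:**
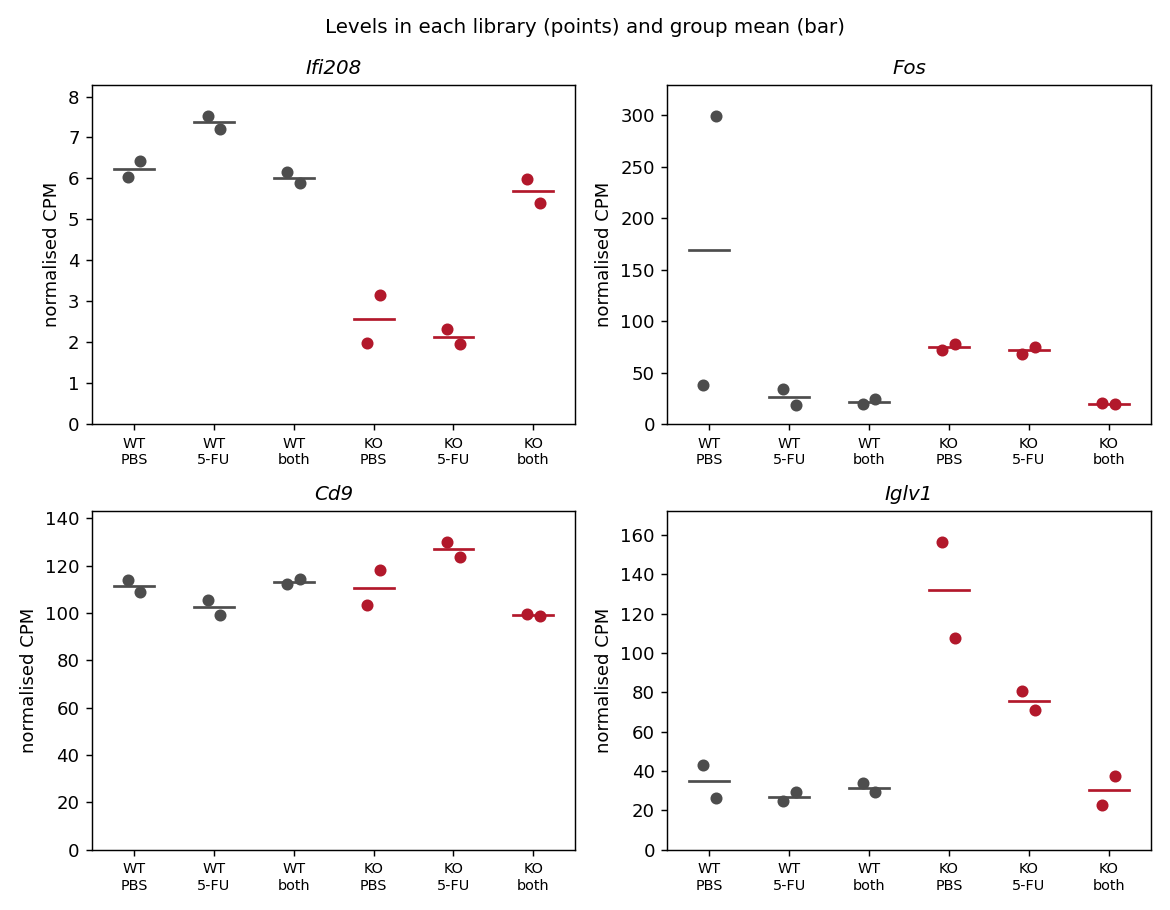
Normalised CPM of Ifi208, Fos, Cd9 and Iglv1 in each library (points) with the mean of each pair (bar), for wild-type (WT) and Nrf2-/- (KO) mice given PBS, 5-FU or 5-FU with BMX-001 (both). The Ifi208 points of the combination in Nrf2-/- marrow, 5.99 and 5.39 CPM, sit near the wild-type range and above the other Nrf2-/- points, while Fos stands at 68.5 and 75.1 CPM after 5-FU, at 20.6 and 19.1 CPM after both drugs, and at 299 CPM in 1 wild-type PBS library.

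The stretch before the start of Ifi208 is shown because the family is named for its interferon response. It is RefSeq's annotation on GRCm38.p6, chr1:173673415-173673664, forward strand, the 250 bases up to the gene's start. Capitals mark the match to GAAANNGAAA, the core repeat of interferon response elements, searched on both strands.

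Ifi208: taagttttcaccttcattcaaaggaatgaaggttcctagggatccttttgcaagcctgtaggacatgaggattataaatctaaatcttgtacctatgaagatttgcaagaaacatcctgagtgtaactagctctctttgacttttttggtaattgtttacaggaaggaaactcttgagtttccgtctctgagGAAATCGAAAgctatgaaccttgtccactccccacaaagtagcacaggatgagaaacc

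The match, GAAATCGAAA, begins 58 bases before the start. Of 32851 promoters of that length, 978 (2.98%) held the motif. Within the Ifi200 family it was found for 9 of 12 genes with an entry, so it does not set Ifi208 apart from its relatives. A match is a description of these letters and not a measured binding site.

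Ifi208 (ENSMUSG00000066677.13) stood at 2.32 and 1.95 CPM after 5-FU and at 5.99 and 5.39 CPM after the combination. PBS libraries held 1.99 and 3.16 CPM, so the combination lay above all 4 other Nrf2-/- libraries of these groups. In raw counts, 81 and 73 after 5-FU compare with 203 and 203 after the combination. The log2 fold change was 1.41 ± 0.20 (SE; 95% interval 0.99 to 1.83), with an adjusted p of 0.0444 by edgeR. Against PBS the combination was higher by 1.14 on the log2 scale (adjusted p 0.00373 by edgeR), whereas 5-FU against PBS gave -0.27 (adjusted p 0.561). Relative to PBS the gene therefore did not return from a 5-FU change but moved past the untreated level.

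The wild-type libraries held 5.89 to 7.53 CPM of Ifi208, and the combination in Nrf2-/- marrow lay close to that range. Nrf2-/- mice given BMX-001 without 5-FU, a group left out of the fit, held 2.51 and 5.92 CPM, so the pair itself spanned both levels. The lower value came from BMX-001 library 1, which stood far apart. The other 11 Ifi200-family genes had log2 fold changes between -0.20 and 0.30, and none passed the test. Of these, Ifi213 and Ifi214 were higher in both combination libraries than in both 5-FU libraries. The family members are close copies of each other, and reads that fit several could be assigned differently by another counting. The call was lost when all 16 libraries were fitted (edgeR adjusted p 1), when only the 6 Nrf2-/- libraries were fitted (0.373), and without any 1 of the 4 compared libraries (0.0742 to 0.263). It was kept by DESeq2 (adjusted p 2.48e-05) and with RLE scaling. Voom (adjusted p 0.0837), a filter of 1 CPM (0.068 by edgeR) and a fit of only the 2 groups (0.282 by edgeR) lost it. So did leaving out any 1 wild-type library except PBS library 1.

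**Figure D2:**
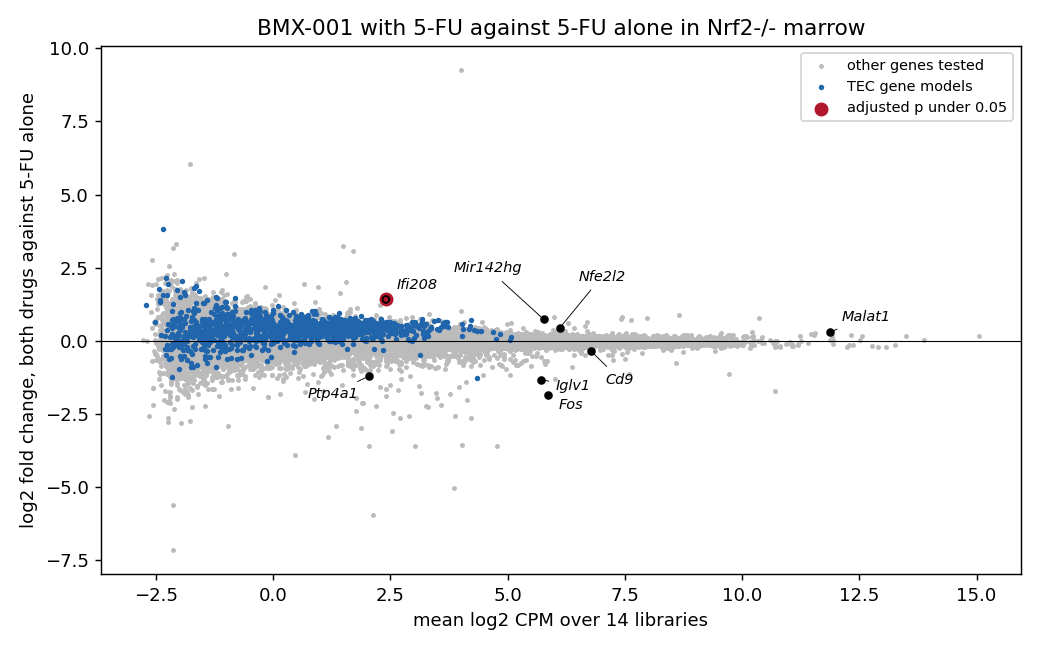
Log2 fold change of the combination over 5-FU in Nrf2-/- marrow (vertical axis) against mean log2 CPM over 14 libraries (horizontal axis) for the 18844 genes tested, with gene models of unproven status (TEC) in blue and the gene that passed the test in red. The TEC points lie mostly above 0, and the genes named in the plot other than Ifi208 did not pass the test.

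Among the next genes by p, none passed by edgeR, but Ptp4a1, Cd9 and Mir142hg were among 11 genes called by DESeq2 (adjusted p 0.0464, 0.0489 and 0.0044). Ptp4a1, a protein tyrosine phosphatase of the PRL family, stood at 4.62 and 6.51 CPM after 5-FU and at 2.21 and 2.60 CPM after the combination. Its log2 fold change was -1.21 ± 0.26 (adjusted p 0.852 by edgeR), and PBS libraries held 6.88 and 6.67 CPM. Against PBS the combination passed the test for Ptp4a1, at -1.49 with an adjusted p of 0.00413 by edgeR. Its wild-type levels ran from 1.88 to 6.96 CPM, a span that covers both treated pairs. BMX-001 without 5-FU gave 18.1 CPM of Ptp4a1 in library 1, which stood far apart, and 3.35 CPM in library 2 in Nrf2-/- marrow.

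Cd9, a tetraspanin of platelets, B cells and stem cells, stood at 130 and 124 CPM after 5-FU and at 99.6 and 98.9 CPM after the combination. PBS libraries held 103 and 118 CPM of Cd9, so the 5-FU pair was the highest of the 3 groups and the combination pair the lowest. The log2 fold change of Cd9 was -0.35 ± 0.08. Mir142hg, the host transcript of the blood cell microRNA miR-142, stood at 38.4 and 53.5 CPM after 5-FU and at 76.7 and 75.7 CPM after the combination. Its log2 fold change was 0.73 ± 0.16. BMX-001 without 5-FU gave 192 and 68.1 CPM of Mir142hg in Nrf2-/- marrow, the first in the library that stood far apart. With the combination, Mir142hg was higher than after PBS by 0.86 on the log2 scale (adjusted p 0.0124 by edgeR). The same held for Ankrd16, an ankyrin-repeat protein that acts with an aminoacyl-tRNA synthetase, at 0.76 (adjusted p 0.00821 by edgeR), and for Sfi1, a centrosome protein, at 0.47 (adjusted p 0.0377 by edgeR). All 3 calls against PBS were lost with 16 libraries and without PBS library 2 or combination library 2, that of Mir142hg also without combination library 1, and that of Sfi1 without any 1 of the 4 libraries.

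The others of smallest p were Selenos (-0.40), a selenoprotein of the endoplasmic reticulum, Slc9a8 (0.30), a sodium-proton exchanger, Mdm4 (0.34), a p53 inhibitor, Tpcn2 (0.56), a lysosomal channel, and Hist2h3c2 (0.87), a histone H3 gene. All 4 libraries of these genes separated by group, which their choice by smallest p in this comparison made likely. Of all genes, 18.6% were higher and 16% lower in the same way. The adjusted p was 0.852 by edgeR for each of the genes named.

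Red cell genes were low after 5-FU and stayed low. Of the 45 erythroid genes tested, 27 fell after 5-FU against PBS and 26 fell after the combination against PBS, where 2.5% and 4.11% of all genes fell. The median log2 fold change of the list was -0.50 for 5-FU over PBS, -0.42 for the combination over PBS and 0.03 for the combination over 5-FU. In that last comparison 0 of 45 passed by edgeR or by DESeq2, and 1 had an unadjusted p under 0.05. Of the 45, 8 genes (17.8%) were higher in both combination libraries than in both 5-FU libraries and 1 (2.22%) was lower in both. The shares over all genes were 18.6% and 16%. Over protein-coding genes alone they were 13.3% and 19%, with a median of -0.03. These are also the nearer shares for the other lists of protein-coding genes. Summed over the list, 5-FU libraries held 76190 and 68250 CPM, the combination 81070 and 77270 CPM, and PBS 99650 and 113000 CPM. In bulk marrow, fewer red cell precursors and less of their RNA per cell cannot be told apart.

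Hbb-bt, a beta globin chain, stood at 7259 and 8880 CPM after PBS, 4933 and 4712 CPM after 5-FU, and 5521 and 5179 CPM after the combination. The combination pair lay above the 5-FU pair by 0.15 ± 0.13 on the log2 scale, within error, and both fell against PBS (-0.74 and -0.59). Both Hbb-bt calls were lost without PBS library 2 and with 16 libraries, and the second also without either combination library. Hba-a1, the alpha chain, fell after 5-FU by 0.55 on the log2 scale (adjusted p 0.0253 by edgeR), a call lost without any 1 of the 4 libraries in it. For the combination over PBS, Hba-a1 had -0.40 with an adjusted p of 0.0784 by edgeR. Hbb-bs, the most abundant globin, had -0.42 and -0.25 and passed in neither. The difference between combination and 5-FU was 0.16 ± 0.13 for Hba-a1 and 0.17 ± 0.15 for Hbb-bs.

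Of the heme and iron genes, 8 of 27 fell in each comparison with PBS, where 2.5% and 4.11% of all genes fell, and the median of the combination over 5-FU was 0.00. With 16 libraries the counts were 2 and 1. Without 1 library of the comparison they were 5 to 7 after 5-FU and 3 to 6 after the combination, with the 3 without combination library 2. Alas2, which starts heme synthesis in red cell precursors, stood at 3755 and 4156 CPM after PBS, 2439 and 2359 CPM after 5-FU, and 2869 and 2676 CPM after the combination. Alas2 fell by 0.72 and 0.51 against PBS and differed between the treated groups by 0.21 ± 0.12 (95% interval -0.05 to 0.47). The second of these calls was lost without any 1 of the 4 libraries in it, and both with 16 libraries. Slc25a37, the mitochondrial iron importer mitoferrin 1, fell by 0.90 after 5-FU and by 0.74 after the combination (edgeR adjusted p 0.000623 and 0.00228). Fech, which inserts iron into the porphyrin ring, fell by 0.69 and 0.55, the second call being lost without either combination library and with 16 libraries. The 95% interval for the combination over 5-FU was -0.09 to 0.40 for Slc25a37 and -0.08 to 0.36 for Fech.

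Other red cell genes were chosen after their values were seen, and their values are a description. Epb42, a membrane skeleton protein, stood at 505 and 556 CPM after PBS, 318 and 293 CPM after 5-FU, and 285 and 317 CPM after the combination. Slc4a1, the anion exchanger band 3, stood at 7399 and 8229, 4638 and 4586, and 4420 and 4979 CPM in the same order. Tmcc2 and Xpo7, both high in late erythroblasts, had log2 fold changes of -1.12 and -1.22 after 5-FU and -0.96 and -1.10 after the combination. The calls of Epb42, Tmcc2, Xpo7 and Slc25a37 against PBS held under all 16 alternative settings in both comparisons. With all 16 libraries in the fit, the number of erythroid genes that fell dropped to 11 after 5-FU and 8 after the combination. Leaving out 1 library of the comparison gave 16 to 25 after 5-FU and 11 to 19 after the combination.

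**Figure D3:**
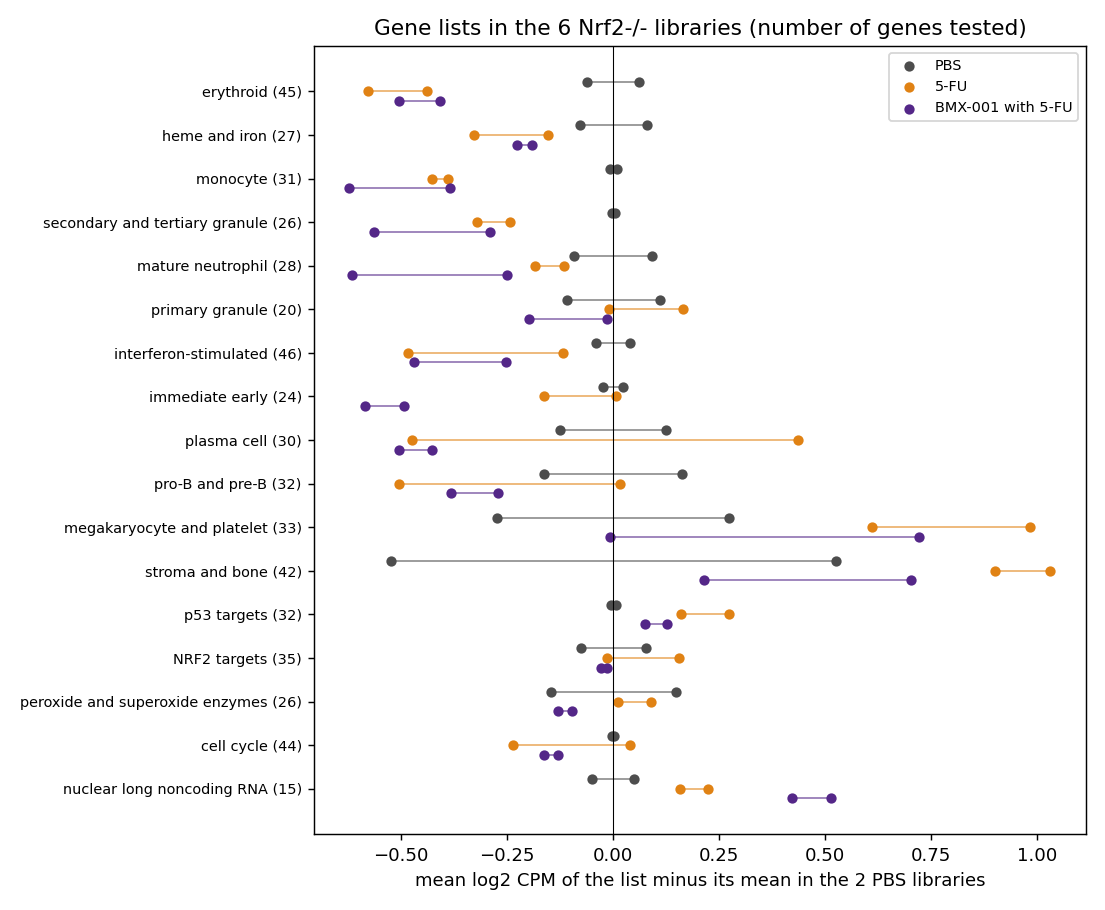
Mean log2 CPM of 17 gene lists in each of the 6 Nrf2-/- libraries, as the difference from the mean of the 2 PBS libraries, with the number of genes tested in brackets. The 5-FU and combination points lie together below PBS for erythroid and monocyte genes, the immediate early points of the combination (-0.49 and -0.59) lie below all others, and the plasma cell list of 5-FU library 1 (0.43) lies far from that of 5-FU library 2 (-0.47).

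Monocyte genes were also below PBS with both treatments. Of 31, 7 fell after 5-FU and 15 after the combination, where 2.5% and 4.11% of all genes fell, with medians of -0.40 and -0.56, and the median of the combination over 5-FU was -0.09. Without PBS library 1 the counts were 3 and 6, without 5-FU library 1 or 2 the first was 3 or 4, without combination library 2 the second was 3, and with all 16 libraries they were 0 and 1. F13a1, a coagulation factor subunit of monocytes, stood at 612 and 513 CPM after PBS, 320 and 390 CPM after 5-FU, and 355 and 302 CPM after the combination. Cx3cr1 and Csf1r, receptors for fractalkine and for the growth factor M-CSF, were chosen after their values were seen. Cx3cr1 fell by 0.90 and 0.81 and Csf1r by 0.64 and 0.73 against PBS. Fn1, fibronectin, stood at 1333 and 1352 CPM after PBS, 394 and 686 CPM after 5-FU, and 566 and 485 CPM after the combination, and passed in neither comparison.

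Neutrophil genes lay a little lower with the combination than with 5-FU, mostly through combination library 2. Of 26 secondary and tertiary granule genes, 4 fell after 5-FU and 14 after the combination against PBS, where 2.5% and 4.11% of all genes fell. The 4 became 0 without any 1 library of that comparison and with 16 libraries. The 14 became 1 without combination library 2 or with 16 libraries, and 6 and 5 without PBS library 1 or 2. The median of the combination over 5-FU was -0.17. Its range was -0.30 to -0.01 when 1 of the 4 libraries was left out. Ngp, a granule protein, stood at 7491 and 6772 CPM after 5-FU and at 6993 and 5563 CPM after the combination, so the pairs overlapped. Ltf, lactoferrin, stood at 5152 and 4966 CPM and at 5214 and 4043 CPM. Against PBS the combination fell for Ngp by 0.57 and for Ltf by 0.45, and both calls were lost without combination library 2, as also without other libraries.

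Of 28 mature neutrophil genes, 14 (50%) were lower in both combination libraries than in both 5-FU libraries, against 16% of all genes, with a median of -0.19. S100a11, a calcium-binding protein, stood at 370 and 339 CPM after 5-FU and 326 and 276 CPM after the combination. Of 20 primary granule genes, 9 were lower in both, with a median of -0.17. Mpo, myeloperoxidase, stood at 2228 and 2012 CPM after 5-FU and 1967 and 1696 CPM after the combination, with 1583 and 2129 CPM after PBS. Hp, haptoglobin, differed by -0.25 ± 0.09 between the treated groups, with an unadjusted p of 0.0134 and an adjusted p of 0.852 by edgeR. 0 genes of these 3 lists passed the test between combination and 5-FU by edgeR, and 6 of them had an unadjusted p under 0.05.

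NRF2's own targets were examined in the absence of the factor. Of 35 tested, 0 passed the test between combination and 5-FU by edgeR and 2 had an unadjusted p under 0.05, both lower. The median was -0.08. In both combination libraries 10 genes (28.6%) were lower and 1 (2.86%) higher, against 16% and 18.6% of all genes. Among protein-coding genes these shares were 19% and 13.3%, with a median of -0.03. Against PBS, 1 of the 35 fell after 5-FU and 5 after the combination, where 2.5% and 4.11% of all genes fell. In the same comparisons 1 and 2 rose, where 0.462% and 1.41% of all genes rose, and the medians were -0.02 and -0.17. Fth1 and Ftl1, the ferritin chains, stood at 1068 and 827 CPM and at 885 and 830 CPM after 5-FU. After the combination Fth1 stood at 866 and 897 CPM and Ftl1 at 855 and 782 CPM. Tkt, transketolase, differed by -0.08 ± 0.09.

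The best known targets, chosen after their values were seen, gave narrow differences between the treated groups. Nqo1, a quinone reductase, stood at 14.02 and 10.68 CPM after 5-FU and 11.4 and 11.5 CPM after the combination (95% interval of the log2 fold change -0.38 to 0.16). Hmox1, heme oxygenase 1, differed by -0.04 ± 0.11, and Gclc, the catalytic subunit of glutathione synthesis, by 0.01 ± 0.10. Gclm, its modifier subunit, fell against PBS by 0.48 after 5-FU and 0.49 after the combination, and differed between them by -0.02 ± 0.09. Both Gclm calls were lost without PBS library 2 and with 16 libraries, the first also without 5-FU library 2 and the second without combination library 1. Srxn1, sulfiredoxin, was above PBS by 0.62 and 0.58, with edgeR adjusted p of 0.0481 and 0.0458, calls that did not hold under 7 and 8 of the 16 alternatives.

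Enzymes that remove peroxide and superoxide, the chemistry that BMX-001 mimics, were examined as a separate list. Of 26, 25 had a negative log2 fold change between combination and 5-FU, 9 (34.6%) were lower in both libraries against 16% of all genes, 0 passed the test by edgeR and 1 had an unadjusted p under 0.05. The median was -0.12, where 19% of protein-coding genes were lower in both and their median was -0.03. Against PBS, 3 of the 26 fell after 5-FU and 8 after the combination, where 2.5% and 4.11% of all genes fell. The medians were -0.04 and -0.15, and the difference between these counts was not tested. Cat, catalase, chosen after its values were seen, stood at 300 and 314 CPM after PBS, 160 and 176 CPM after 5-FU, and 164 and 170 CPM after the combination. Cat fell by 0.87 and 0.88 against PBS, calls that held under all 16 alternatives. Ucp2, a mitochondrial carrier, fell by 0.72 and 0.73, also under all 16. Gpx1, a glutathione peroxidase, stood at 1680 and 1530 CPM after 5-FU and 1468 and 1535 CPM after the combination, below its PBS levels of 1917 and 2750 CPM. Prdx2, a red cell peroxiredoxin, differed between the treated groups by -0.07 ± 0.12.

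Targets of p53 and genes of the 5-FU pathway gave no called difference. Of 32 p53 targets, 11 (34.4%) were lower and 3 (9.38%) higher in both combination libraries, against 16% and 18.6% of all genes, with a median of -0.09 and 0 calls and 0 unadjusted p under 0.05 by edgeR. Eda2r, a death receptor chosen after its values were seen, stood at 0.39 and 0.24 CPM after PBS, 1.81 and 1.495 CPM after 5-FU, and 1.39 and 1.43 CPM after the combination. Eda2r rose against PBS in both treated groups (log2 fold change 2.37 and 2.15). Both calls were lost with 16 libraries, and the second also by DESeq2 and without PBS library 2 or combination library 2. Of the named p53 targets, Btg2 and Trp53inp1, which restrain proliferation, and Apaf1, of the apoptosome, differed between the treated groups by -0.18, -0.15 and -0.03. Rrm1 and Rrm2, the ribonucleotide reductase subunits, differed by -0.05 and -0.08, and the nucleotide hydrolase Samhd1 by -0.06. For the 44 cell cycle genes the median was -0.05, and 0 of them separated the 4 libraries by group. Mki67 and Top2a, markers of dividing cells, differed by 0.03 ± 0.11 and -0.03 ± 0.09.

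Immediate early genes, whose transcripts appear within minutes of a stimulus, shared 1 direction. Each of the 24 tested had a negative log2 fold change between combination and 5-FU, with a median of -0.27, and 16 (66.7%) were lower in both combination libraries, against 16% of all genes. 0 passed the test by edgeR or DESeq2, and 0 had an unadjusted p under 0.05 in the fit over 14 libraries. Of the most abundant, Btg2 stood at 235 and 267 CPM after 5-FU and 222 and 222 CPM after the combination. Zfp36, which speeds the decay of cytokine transcripts, stood at 182 and 130 CPM and at 108 and 87.8 CPM, a difference of -0.67 ± 0.41. Fosl2 differed by -0.12 ± 0.15, from -0.33 to 0.13 without 1 library.

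Fos and Fosb, subunits of AP-1, were chosen after their values were seen. Fos stood at 71.6 and 77.8 CPM after PBS, 68.5 and 75.1 CPM after 5-FU, and 20.6 and 19.1 CPM after the combination. The log2 fold change was -1.85 ± 0.86 with an adjusted p of 0.852 by edgeR. Fosb stood at 14.2 and 9.80 CPM after 5-FU and 2.45 and 2.68 CPM after the combination. For Fos the 6 Nrf2-/- libraries agreed closely within each pair, whereas wild-type PBS libraries held 37.9 and 299 CPM. Wild-type libraries held 34.1 and 18.2 CPM of Fos after 5-FU and 19.4 and 23.9 CPM after the combination. These all lay below the Nrf2-/- 5-FU pair. In a fit of only the 6 Nrf2-/- libraries the standard error of Fos was 0.10 and the adjusted p by edgeR was 5.26e-06. In that fit 3 genes passed, Fos, Fosb (adjusted p 0.00135) and Rgs1 (adjusted p 0.0337), a regulator of G protein signalling. Without wild-type PBS library 2 the 14-library fit gave an adjusted p of 0.637 for Fos. BMX-001 without 5-FU in Nrf2-/- marrow, a group left out of both fits, gave 273 and 30.4 CPM of Fos and 93.3 and 8.15 CPM of Fosb. The first value of each gene came from BMX-001 library 1, which stood far apart. Handling time before RNA extraction is not given in the labels, and its part in these genes was not tested.

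Genes of antibody-secreting cells differed between the 5-FU libraries. Of 30 plasma cell genes, 13 (43.3%) were lower in both combination libraries, against 16% of all genes, with a median of -0.39 that ranged from -0.64 to -0.08 when 1 library was left out. Sdc1, the plasma cell surface marker CD138, chosen after its values were seen, stood at 17.2 and 13.6 CPM after 5-FU and 10.7 and 10.8 CPM after the combination. Its log2 fold change was -0.52 ± 0.17, from -0.68 to -0.34 without 1 library, and it did not pass the test. Igkc, the kappa constant gene, stood at 2471 and 736 CPM after 5-FU and 658 and 784 CPM after the combination. Ighm stood at 811 and 885 CPM after the combination. Tent5c, a poly(A) polymerase in the same list, went the other way, at 1899 and 2167 CPM after 5-FU and 2462 and 2428 CPM after the combination. Tent5c fell against PBS in both groups, by 1.11 and 0.84, under all 16 alternatives.

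Of 190 immunoglobulin V segments tested among 346, 46 (24.2%) were lower and 19 (10%) higher in both combination libraries, against 16% and 18.6% of all genes, with a median of -0.59 that ranged from -0.75 to -0.07 when 1 library was left out. Their sum was 2448 and 800 CPM after 5-FU and 698 and 815 CPM after the combination. Iglv1, a lambda segment, stood at 157 and 108 CPM after PBS, 80.8 and 70.9 CPM after 5-FU, and 22.7 and 37.6 CPM after the combination. Iglv1 fell against PBS by 2.13 with the combination (adjusted p 0.0112 by edgeR). That call was lost without PBS library 1, with only the 6 Nrf2-/- libraries and with only the 2 groups. The log2 fold change of Iglv1 over 5-FU was -1.33 ± 0.31. BMX-001 without 5-FU gave 34.5 and 36.1 CPM of it in Nrf2-/- marrow, the first in the library that stood far apart. Igkv12-44 and Ighv14-2 differed by -1.32 ± 0.31 and -1.67 ± 0.42. By edgeR 0 segments passed and 31 had an unadjusted p under 0.05, while DESeq2 called 6, these 3 among them. The segments transcribed depend on the B cell clones a sample holds, and reads of near-identical segments can be exchanged.

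Of 42 stroma and bone genes, 24 (57.1%) were lower in both combination libraries, against 16% of all genes, with medians of -0.53 for the combination over 5-FU (-0.88 to -0.27 without 1 library) and 0.91 for 5-FU over PBS. Against PBS, 1 of the 42 passed after 5-FU and 0 after the combination. Cxcl12, the chemokine that holds stem cells in the niche, stood at 88.0 and 333 CPM after PBS, 597 and 568 CPM after 5-FU, and 238 and 451 CPM after the combination. Cxcl12 differed by -0.76 ± 0.58 between the treated groups, and its PBS libraries differed more from each other than the treated groups did. Of 33 megakaryocyte and platelet genes, 32 had a negative log2 fold change and 8 (24.2%) were lower in both. The median was -0.42, from -0.87 to -0.10 without 1 library, and 0 of the 33 passed against PBS in either group. Plek, a platelet kinase substrate, stood at 351 and 372 CPM after 5-FU and 281 and 307 CPM after the combination, and Thbs1, thrombospondin 1, at 406 and 586 CPM and 302 and 449 CPM. No gene of these 2 lists passed by edgeR between combination and 5-FU, 5 had an unadjusted p under 0.05, all lower, and DESeq2 called 1, Cd9. The amount of stroma taken with each marrow sample is not in the labels, and its part was not tested.

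The remaining cell types showed small medians. T and NK cell genes had -0.02, mature B cell genes -0.04, dendritic cell genes -0.04, macrophage genes -0.01 and stem and progenitor genes -0.11. Eosinophil granule genes were high in 1 library: Epx, eosinophil peroxidase, stood at 248 and 491 CPM after 5-FU and 387 and 960 CPM after the combination. Among interferon-stimulated genes, where Ifi208's relatives would be looked for, 6 of 46 (13%) were higher and 5 (10.9%) lower in both combination libraries, against 18.6% and 16% of all genes, with a median of -0.06. Rsad2, the antiviral protein viperin, stood at 501 and 513 CPM after 5-FU and 587 and 532 CPM after the combination, below 996 and 1384 CPM after PBS. Isg20, an exonuclease, fell by 0.81 against PBS in both groups, under all 16 alternatives.

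Of 32 genes of ATF4 and the unfolded protein response, 15 (46.9%) were lower in both combination libraries, against 16% of all genes, with a median of -0.17. Hspa5, the chief chaperone of the endoplasmic reticulum, stood at 522 and 447 CPM after 5-FU and 423 and 388 CPM after the combination. The median of ribosomal protein genes was -0.14, where 23 of 83 (27.7%) were lower in both and 2 (2.41%) higher. No gene of either list passed the test by edgeR or DESeq2 between the treated groups, and 3 had an unadjusted p under 0.05.

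Noncoding transcripts went the other way. All 15 nuclear long noncoding RNAs tested had a positive log2 fold change between combination and 5-FU. Of these, 11 (73.3%) were higher in both libraries, and the median was 0.19, against 18.6% and 0.00 for all genes. The 597 tested genes annotated as lincRNA, long intergenic noncoding RNA, gave 30.7% and a median of 0.20, so the list median was that of its class. Neat1, the scaffold of paraspeckles, stood at 115 and 167 CPM after 5-FU and 234 and 238 CPM after the combination, with 146 and 141 CPM after PBS. Its log2 fold change was 0.74 ± 0.21, with an adjusted p of 0.852 by edgeR. BMX-001 without 5-FU gave 1110 and 219 CPM of Neat1 in Nrf2-/- marrow, the first in BMX-001 library 1, which stood far apart. Malat1, of nuclear speckles, stood at 2538 and 3801 CPM and at 3474 and 4335 CPM, so its pairs overlapped. Tug1 differed by 0.09 ± 0.08. Against PBS, 4 of the 15 rose with the combination, where 1.41% of all genes rose, and 0 passed with 5-FU, where 0.462% rose. The difference between these counts was not tested.

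The grouping by annotated type was made after the data were seen. Of 1082 TEC genes, models that the GENCODE annotation keeps as awaiting experimental proof, 486 (44.9%) were higher in both combination libraries and 29 (2.68%) lower, with a median of 0.40. Sense intronic transcripts gave 44% and 1.1%, and the 13687 protein-coding genes 13.3% and 19%. Summed, TEC genes held 1771 and 2587 CPM after 5-FU, 2692 and 2996 CPM after the combination, 2011 and 2008 CPM after PBS, and 1820 to 2856 CPM in wild type. The 5-FU pair thus differed from each other by more than its upper library differed from the combination. The strand setting of the counting is not given in the sources used here, so intronic and antisense models cannot be told apart from reads of the genes they lie in. The share of unspliced RNA or of genomic DNA in each library was not measured here, and its part was not tested.

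**Figure D4:**
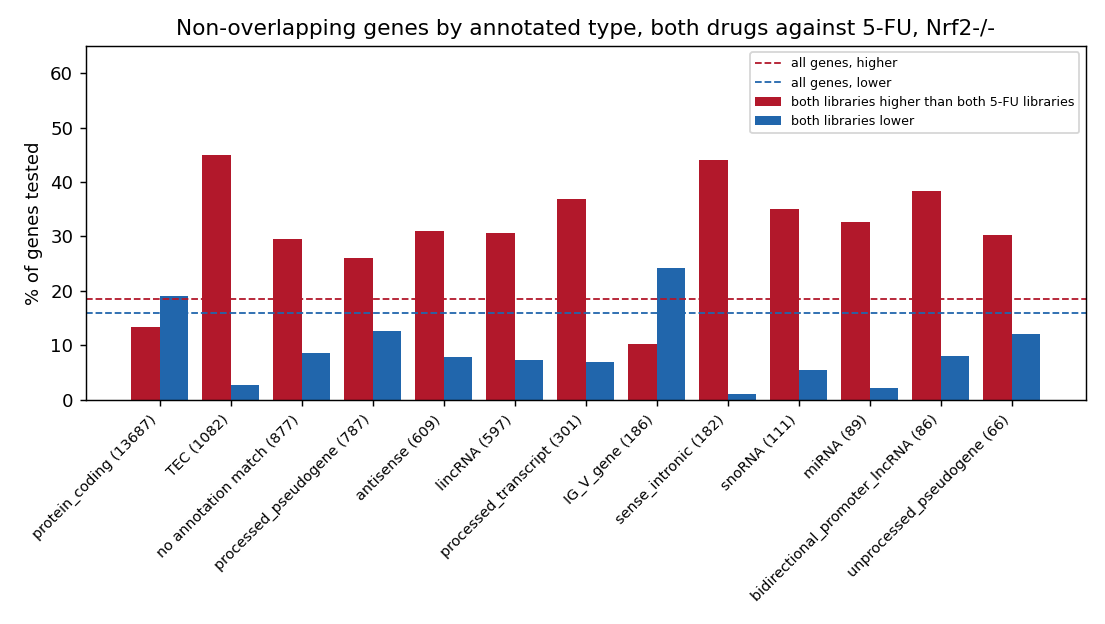
Share of tested genes whose 2 combination libraries were both higher (red) or both lower (blue) than both 5-FU libraries in Nrf2-/- marrow, by annotated gene type with the number tested in brackets, with dashed lines for all genes (18.6% and 16%). TEC and sense intronic models reach 44.9% and 44% higher, while protein-coding genes are at 13.3%.

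Genes called for 5-FU against PBS in wild-type marrow were then followed in Nrf2-/- marrow. They were 7.13% of the genes tested. The contrast compared wild-type libraries only, but its filter, scaling and spread came from the fit over 14 libraries, Nrf2-/- ones included. The 726 genes lower in wild type (3.85% of those tested) had Nrf2-/- medians of -0.20 for 5-FU over PBS and -0.27 for the combination over PBS. For the combination over 5-FU their median was -0.06, with 8.13% of them higher and 28.9% lower in both libraries, against 18.6% and 16% of all genes. Of the 726, 702 were protein-coding, and all protein-coding genes tested gave 13.3%, 19% and a median of -0.03. The median of the 726 genes therefore did not lie back towards PBS. The 618 genes higher in wild type (3.28%) had medians of 0.16, 0.34 and 0.11 in the same order, and 22.2% of them were TEC models, against 5.74% of all genes. Among their 347 protein-coding members the medians were 0.11, 0.13 and 0.01.

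**Figure D5:**
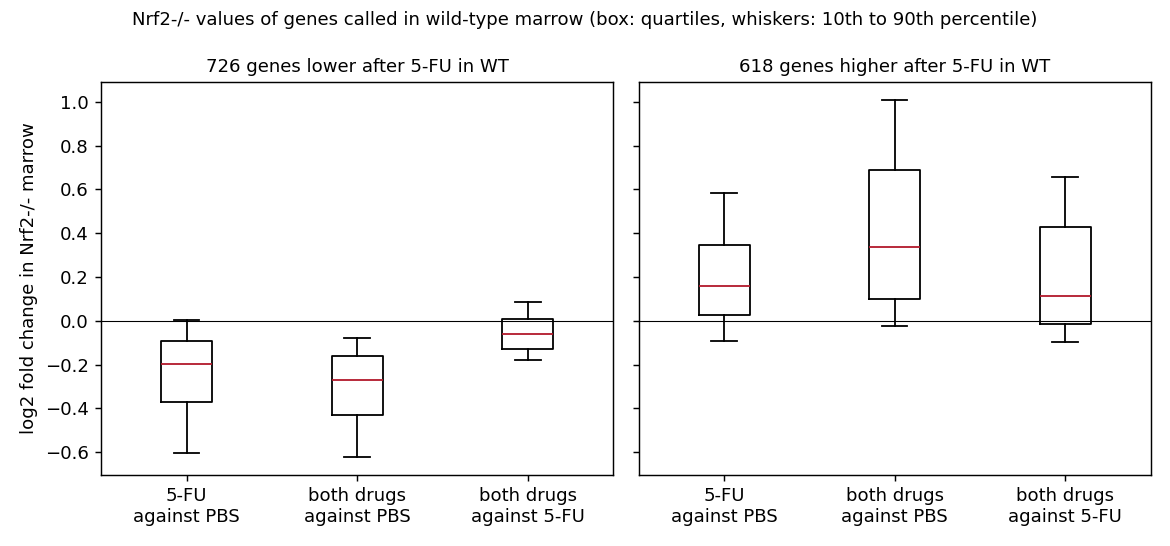
Log2 fold changes in Nrf2-/- marrow of the 726 genes lower and the 618 genes higher after 5-FU in wild-type marrow, for 5-FU over PBS, the combination over PBS and the combination over 5-FU (box with quartiles and median, whiskers from the 10th to the 90th percentile). For the genes lower in wild type the median of the combination over 5-FU is -0.06, close to 0 and on the same side as 5-FU over PBS.

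Whether BMX-001 made a different change with and without NRF2 was tested as an interaction. No gene passed by edgeR (0 of 18844, 0%), 1938 had an unadjusted p under 0.05, and DESeq2 gave 7. In wild type itself the combination against 5-FU gave 0 calls by edgeR (0%), with 1721 at an unadjusted p under 0.05 and 40 calls by DESeq2. Ifi208 had the smallest p: 1.41 in Nrf2-/- and -0.29 in wild-type marrow, a difference of 1.71 ± 0.27 with an adjusted p of 0.198 by edgeR. Crip1, a LIM-domain protein, stood in wild type at 51.5 and 53.5 CPM after 5-FU and 67.4 and 64.6 CPM after the combination, and in Nrf2-/- marrow at 56.3 and 61.9 CPM and 51.6 and 50.2 CPM. Elof1, a transcription elongation factor, stood in wild type at 37.2 and 36.1 CPM and 45.6 and 48.5 CPM, and in Nrf2-/- marrow at 40.8 and 39.8 CPM and 35.9 and 36.9 CPM. Both had opposite signs in the genotypes, with differences of -0.55 ± 0.11 and -0.51 ± 0.10 and an adjusted p of 0.411 by edgeR.

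Several lists had medians of opposite sign in the genotypes, a difference that was not tested over lists. NRF2 targets had -0.08 in Nrf2-/- and 0.15 in wild-type marrow, and peroxide and superoxide enzymes -0.12 and 0.15. TEC genes had 0.40 and -0.30, and the 19 mitochondrially encoded transcripts 0.16 and -0.44. Erythroid genes had 0.03 and 0.14.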

How the data were processed

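Total RNA of 2 libraries per group was sequenced, and the authors deposited a table of raw counts per gene (57132 Ensembl IDs) for all 16 libraries. Per the submitters' processing notes, the tools included Trim Galore 0.6.4, FastQC 0.12.1, featureCounts, Salmon 1.4.0 and DESeq2 1.38.3 with the build GRCm39. No aligner or strand setting is given in the sources used here. Symbols were matched by ID for 51880 genes, and IDs without one held 2.69% of counts. Gene types came from GENCODE by ID and promoters from RefSeq on GRCm38.p6, both without use of file coordinates.

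Counts were tested with edgeR 4.0.16 (R 4.3.3; TMM, filterByExpr, robust quasi-likelihood) over 14 libraries of 7 groups, leaving 7 residual degrees of freedom. Nrf2-/- mice given BMX-001 alone were left out because 1 of those libraries, library 1, was known to stand far apart. CPM are TMM-normalised. Fold changes are log2, with SE and 95% intervals from the fit. The script was tested on simulated data. DESeq2 1.42.0, limma 3.58.1 (voom), other filters, scalings and library subsets were alternatives. No duplicates held identical values.

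The groups and the 33 gene lists were chosen with earlier results of these data known. Named genes were Nfe2l2, the 12 of smallest p whose log2 CPM averaged 1 or more, up to 3 members of highest mean CPM per list, the 3 of smallest interaction p, the 3 immunoglobulin segments of smallest p, and sex-linked genes. Others are said to be chosen after their values were seen. 2 alternatives (15 libraries, and protein-coding genes only) were added after the data were seen. Same-numbered libraries correlated at -0.07, 0.34 and 0.19 between the 3 Nrf2-/- groups. Each group holds only 2 libraries, so these values cannot decide whether the numbers pair them. The main fit did not pair them.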

Additional observations from a re-analysis of the deposited data

How the results depend on the processing

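With 2 libraries per group, counts of calls moved with the settings. Fits said to use only the Nrf2-/- libraries held the 6 libraries of the PBS, 5-FU and combination groups, without BMX-001 alone. No value that passed a test changed sign, but of 268 values and list medians recomputed, most of them not called, 87 changed sign without 1 library and 22, all within 0.05 of 0 in the fit reported, under another setting. For the combination against 5-FU in Nrf2-/- marrow, the 1 call became 0 with 16 libraries, with voom and with a filter of 1 CPM, 3, all lower, with only the Nrf2-/- libraries, 5, 4 of them lower, with only the 2 groups, 11 with DESeq2, 33 without a filter, and 0 to 7 without 1 library (7 without 5-FU library 2). For 5-FU against PBS, 558 became 87 with 16 libraries, 337 with only the Nrf2-/- libraries, 200 with 2 groups, 1076 with DESeq2, 1292 without a filter, and 257 to 532 without 1 library. For the combination against PBS, 1041 became 116 with 16 libraries, 497 with only the Nrf2-/- libraries, 1574 with DESeq2, 1887 without a filter, 616 with protein-coding genes only, and 191 to 559 without 1 library (191 without combination library 2). In wild type, 0 became 1 with 2 groups, 40 with DESeq2, 59 without a filter, and 0 to 1 without 1 library. The interaction went from 0 to 1 with its 8 libraries, 7 with DESeq2, 93 without a filter, and 0 to 9 without 1 library. The causes were not tested. A replicate block, which treats same-numbered libraries of a genotype as linked, gave 1 call. That call was Igkv6-20 and not Ifi208 (adjusted p 0.107 by edgeR). The block gave 633 and 1074 calls against PBS, and 0 for the interaction.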
